A study of Mus musculus with 14 samples.

Results

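REST (RE1-silencing transcription factor) is a zinc-finger repressor that keeps neuronal genes off in cells that are not neurons. It binds a DNA element called RE1 near these genes and recruits corepressors, among them CoREST proteins, which bring the histone demethylase LSD1 and histone deacetylases. RCOR2 is a CoREST family protein made in embryonic stem cells (ESCs) and in the developing nervous system. Binding of REST itself was not measured in these data. The genes described here are Rest and 34 neuronal genes listed as its targets, 35 named genes among the 25131 genes of the count table. They were chosen with earlier results of these data known, so they are compared with other genes by counts and medians only, and no test was made of the list against other genes.

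RCOR2 binding was read from a list of ChIP-seq peaks (chromatin immunoprecipitation, which enriches DNA fragments bound by a protein), and expression from RNA-seq counts. All cells were mouse ESCs of C57BL/6 background, kept in serum with leukemia inhibitory factor and the inhibitors PD0325901 (MEK) and CHIR99021 (GSK3). For the ChIP, cells labelled as expressing RCOR2-HA were precipitated with anti-HA agarose (2 libraries), and the negative control groups were WT cells (1 library) and mCherry-expressing cells (1 library). The RNA-seq compared cells of the genotype RCOR2 KO with WT cells, 2 libraries each. The sources used here do not give what was deleted in the KO, whether it is 1 clone, or at what level RCOR2-HA was expressed. Peaks were called on the merged ChIP libraries, so a peak has 1 value and no replicate error. Each peak has a fold enrichment and a −log10 q, its significance on a log scale, both the authors' values, used only to describe and rank peaks within this list. The list holds 53366 peaks on chromosomes, with a median −log10 q of 5.08, a median fold of 4.38 and a median width of 260 bp. The weakest has a −log10 q of 1.31.

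Total counts were 2951498 and 1974865 in the KO libraries, and 2368804 and 1286393 in those of WT cells. All 8 ESC markers checked, Pou5f1 and Nanog among them, had counts in all 4 libraries. Their sum was 4350 and 4344 CPM (counts scaled to the library total) in the KO libraries and 4110 and 3792 CPM in WT. The 8 neuron markers summed to 5.52 and 2.09 CPM in the KO and to 24.9 and 29.0 CPM in WT, with Dcx at 0 in every library. The 8 neural progenitor markers summed to 15.5 and 34.0 CPM in the KO and 66.6 and 51.0 CPM in WT, with Zic1 and Hes5 at 0. The 5 trophoblast markers went the other way, with 54.5 and 67.0 CPM in the KO and 9.70 and 16.0 CPM in WT. The sums of fibroblast (13.1 to 29.0 CPM) and primitive endoderm markers (1.69 to 7.25 CPM) overlapped between the groups. The neuron and neural progenitor sums were thus lower and the trophoblast sum higher in the KO libraries without overlap, and their part in the differences below was not tested. How often groups of 2 libraries separate for other sets of genes was not counted, so separation alone shows no change. The neuron, neural progenitor and trophoblast sums rest on few genes and counts. The highest count of any neuron marker was 8 and 2 in the KO and 24 and 13 in WT. For neural progenitor markers it was 26 and 54 in the KO and 99 and 41 in WT, with counts at 4 or 5 of the 8 genes. For trophoblast markers it was 94 and 75 in the KO and 20 and 15 in WT. All 5 trophoblast genes had counts in both KO libraries, but only 2 and 4 of them in WT. Rcor2 itself had 157 and 103 counts in the KO and 193 and 107 in WT, which did not pass the test (edgeR, log2 fold change −0.59, SE 0.23, adjusted p = 0.0636). The counts do not check the genotype, since the deleted stretch is not known.

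Promoter sequences with letters of the RE1 element are shown first. The pattern searched has a left arm, TTCAGCACC, and a right arm, GGACAG, with 2 free bases between them, so that 15 letters are compared over 17 bases, on both strands. Promoter windows run from 250 bases before to 50 after a start annotated by RefSeq (GRCm38.p6). They were at hand for 24 of the 35 genes, in 34 windows, as some genes have several starts. Shown are the 4 genes whose window held the pattern with at most 1 mismatch or the complete left arm, each of which overlapped an RCOR2 peak. Capitals mark the stretch aligned to the pattern, and bases after the start are left out except where the stretch itself lies there.

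Gria2: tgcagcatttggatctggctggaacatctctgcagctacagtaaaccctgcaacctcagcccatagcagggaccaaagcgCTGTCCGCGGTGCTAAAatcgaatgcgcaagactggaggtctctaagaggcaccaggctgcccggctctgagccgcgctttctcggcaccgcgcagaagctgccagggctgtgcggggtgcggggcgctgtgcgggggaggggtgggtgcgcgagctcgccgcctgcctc
Celsr3: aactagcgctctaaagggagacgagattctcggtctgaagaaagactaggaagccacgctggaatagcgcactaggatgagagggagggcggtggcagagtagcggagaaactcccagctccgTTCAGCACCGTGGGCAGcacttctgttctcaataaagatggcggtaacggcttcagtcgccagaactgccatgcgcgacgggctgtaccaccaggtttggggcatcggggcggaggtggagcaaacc
Scg2: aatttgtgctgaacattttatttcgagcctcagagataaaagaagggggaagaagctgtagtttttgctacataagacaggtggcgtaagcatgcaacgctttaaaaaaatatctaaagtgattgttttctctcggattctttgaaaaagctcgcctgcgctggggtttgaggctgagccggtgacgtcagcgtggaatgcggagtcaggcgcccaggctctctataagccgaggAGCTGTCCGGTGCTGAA
Unc13a: TTCAGCACCGGGGGCGC

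The Gria2 sequence is chr3:80802836-80803085 on the minus strand, the Celsr3 sequence chr9:108825795-108826044 on the plus strand, and the Scg2 sequence chr1:79440025-79440276 on the minus strand. Each is printed in the direction of transcription. Only the aligned stretch of Unc13a is printed, as the strand that reads like the pattern, because it lies after the start. Gria2, an AMPA receptor subunit, differs from the pattern at 1 compared letter, and the centre of its match lies 10 bp from the RCOR2 summit. In Celsr3, an atypical cadherin, the match also differs at 1 letter and lies inside the peak, which is 2887 bp wide, but 1139 bp from its summit. Scg2, a granin of secretory granules, holds both arms with no base between them, which counts as 5 mismatches to the spaced pattern, and its summit is 2 bp from the centre of that stretch. Unc13a, which primes synaptic vesicles for release, holds the left arm complete and differs at 3 letters in all, with its summit 11 bp away. The complete right arm is also in its window, on the same strand, but past the printed stretch and at a wider spacing than in the pattern.

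The pattern is rare in promoters. With at most 1 mismatch it was in 19 of 32851 windows (0.0578%), of which 18 overlapped an RCOR2 peak and 13 a peak of −log10 q 20 or more. Over all windows 23.0% overlapped a peak and 1.35% one of that strength. The 4 windows that held all 15 letters each overlapped such a peak. The left arm alone was in 122 windows (0.371%), 52 of them with a peak, and the right arm alone in 22.2% of windows, of which 23.4% had a peak. Among the 34 windows of these genes 2 held the pattern with at most 1 mismatch, those of Celsr3 and Gria2, and 3 held the left arm, those of Celsr3, Scg2 and Unc13a. Windows that overlap share bases, and a match is a description of letters and not a measured site. RE1 elements outside these windows were not searched.

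All 35 genes, chosen with earlier results of these data known, had an RCOR2 summit in the gene interval or within 10 kb of it. The share was 68.1% of the 21852 other protein-coding genes. Among 8850 other protein-coding genes with 10 or fewer counts over the 4 RNA-seq libraries, called silent below, it was 45.7%, and among 9850 genes expressed highly enough to be tested it was 89.0%. Of the 35 genes 18 were silent by the same cutoff, and all 18 had a summit. A summit within reach was thus common at expressed genes in general. The 9 of the 35 genes that were tested, Rest among them, are better read against those. The others above the silent cutoff belong to neither group.

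The strongest peaks had higher values than those of either group. The strongest peak of each gene had a median −log10 q of 30.4 and a median fold of 11.5. Silent genes with a peak had medians of 7.42 and 5.30, and expressed genes with a peak a median −log10 q of 8.23. A peak of −log10 q 20 or more lay at 24 of the 35 genes (68.6%), at 5.36% of silent genes, at 9.85% of expressed genes and at 7.85% of all other protein-coding genes. Among the 18 silent neuronal genes it lay at 12 (66.7%). At 50 or more there were 11 of the 35 (31.4%) and 1.27% of silent genes. The next peaks at these genes were mostly weak: the 97 peaks other than the strongest had a median −log10 q of 4.46, and 1 of them, at Stmn3, reached 20.

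**Figure D1:**
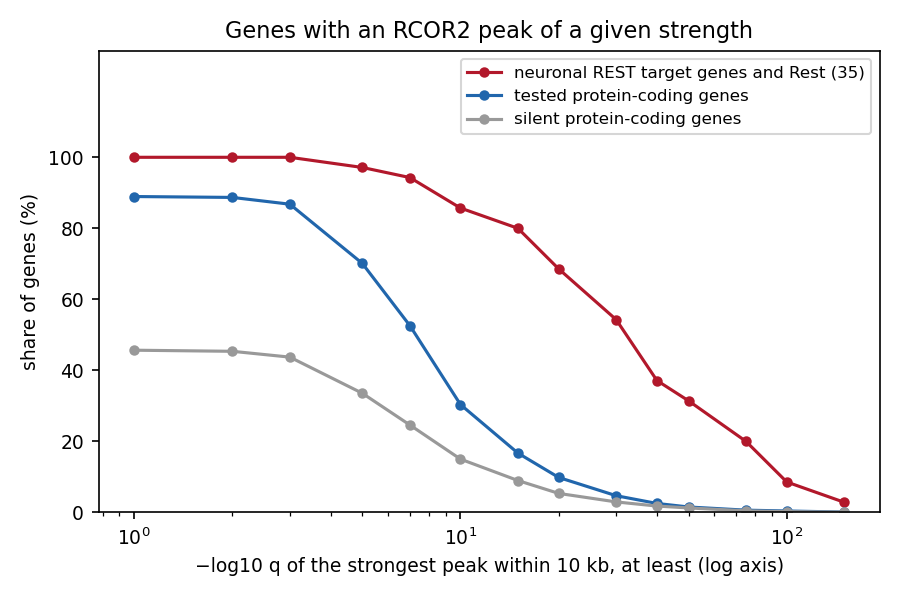
Share of genes (percent) whose strongest RCOR2 peak in or within 10 kb of the gene has at least the −log10 q on the log axis, for the 35 neuronal REST target genes with Rest, tested protein-coding genes and silent protein-coding genes. At a −log10 q of 20 the shares are 68.6%, 9.85% and 5.36%.

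The number of peaks depended on how it was scaled. The 35 genes held 132 distinct peaks, a median of 3 a gene with a range of 1 to 13, beside a median of 0 for silent and 2 for expressed genes. With all peaks divided by the summed length of genes and flanks, in which the longest genes weigh most, this was 3.72 peaks per 100 kb, beside 1.82 for silent and 4.63 for expressed genes. As a median of the genes' own values it was 4.94 per 100 kb, beside 0 for silent and 4.37 for expressed genes, so the order against expressed genes turned. The 18 silent neuronal genes held 2.08 per 100 kb of summed length, with a median of 3.04 per 100 kb and of 2 peaks a gene. A single peak was all that 8 of the genes had. Silent genes were a mixed class in which olfactory and vomeronasal receptor genes, which lie in large clusters, made up 16.5%. Without them 52.0% of silent genes had a peak and 6.25% one of −log10 q 20 or more.

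Longer genes have more room for peaks, so the genes were also read by the length of the interval with its flanks, whose median was 46.9 kb here and 30.4 kb for silent genes. Under 30 kb, 4 of 7 genes had a peak of −log10 q 20 or more (57.1%), beside 2.84% of silent genes. From 30 to 60 kb it was 10 of 13 (76.9%) beside 6.20%, and from 60 to 120 kb 8 of 9 (88.9%) beside 6.99%. At 120 kb or more it was 2 of 6 (33.3%) beside 13.2%. The share was higher than that of silent genes in each class, and the gap was smallest for the longest genes, of which there were 6.

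**Figure D2:**
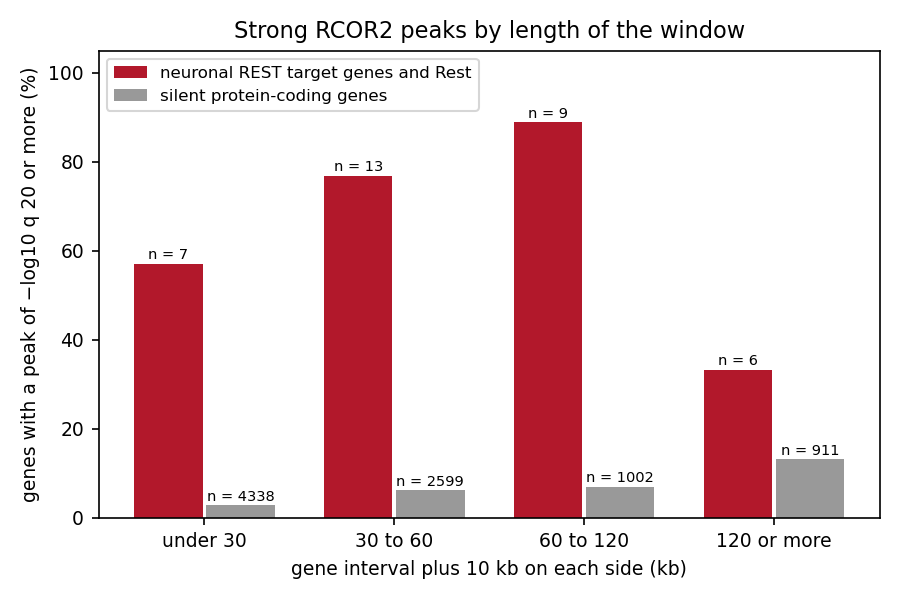
Share of genes (percent, bars from 0) with an RCOR2 peak of −log10 q 20 or more, by the length of the gene interval plus 10 kb on each side, with the number of genes above each bar. The bars of the neuronal REST target genes with Rest are 57.1%, 76.9%, 88.9% and 33.3%, above those of silent genes in all 4 classes.

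The peaks lay close to gene starts. A summit within 1 kb of a start was found at 29 of the 35 genes (82.9%), at 16.9% of silent genes, 70.7% of expressed genes and 44.4% of all other protein-coding genes. Of the 18 silent neuronal genes 15 had one (83.3%). The start was a RefSeq start for 24 genes, of which 20 had a summit within 1 kb. For the other 11 (Rest, Stmn2, Syt4, Snap25, Scn3b, Vgf, Nefl, Nefm, Vamp2, Nsg1 and Calb1) it was the nearer end of the gene interval, which can be the 3′ end. Celsr3, Celsr2, Nefl, Nsg1, Fgf14 and Atp2b2 had no summit within 1 kb. Just outside that limit were Celsr3, at 1020 bp, and Nefl, at 1039 bp, and just inside it was Tubb3, at 995 bp.

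The strongest peak of a gene was itself within 1 kb of a start in 21 of the 35 (60%), beside 842 of the 4043 silent genes with a peak (20.8%). It lay 1 to 5 kb away in 7, farther inside the gene in 4 (11.4%) and farther outside it in 3 (8.57%). Silent genes had 17.3% at 1 to 5 kb, 26.8% farther inside and 35% farther outside. These shares were not tested against each other. Of the strongest peaks within 1 kb of a RefSeq start, 11 had their summit on the transcribed side and 4 before the start. These peaks were also wide: their median width over all 35 genes was 728 bp and 13 reached 1000 bp, beside 3.87% of all RCOR2 peaks. Strong peaks are wide throughout the list, since peaks of −log10 q 20 or more had a median width of 700 bp.

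**Figure D3:**
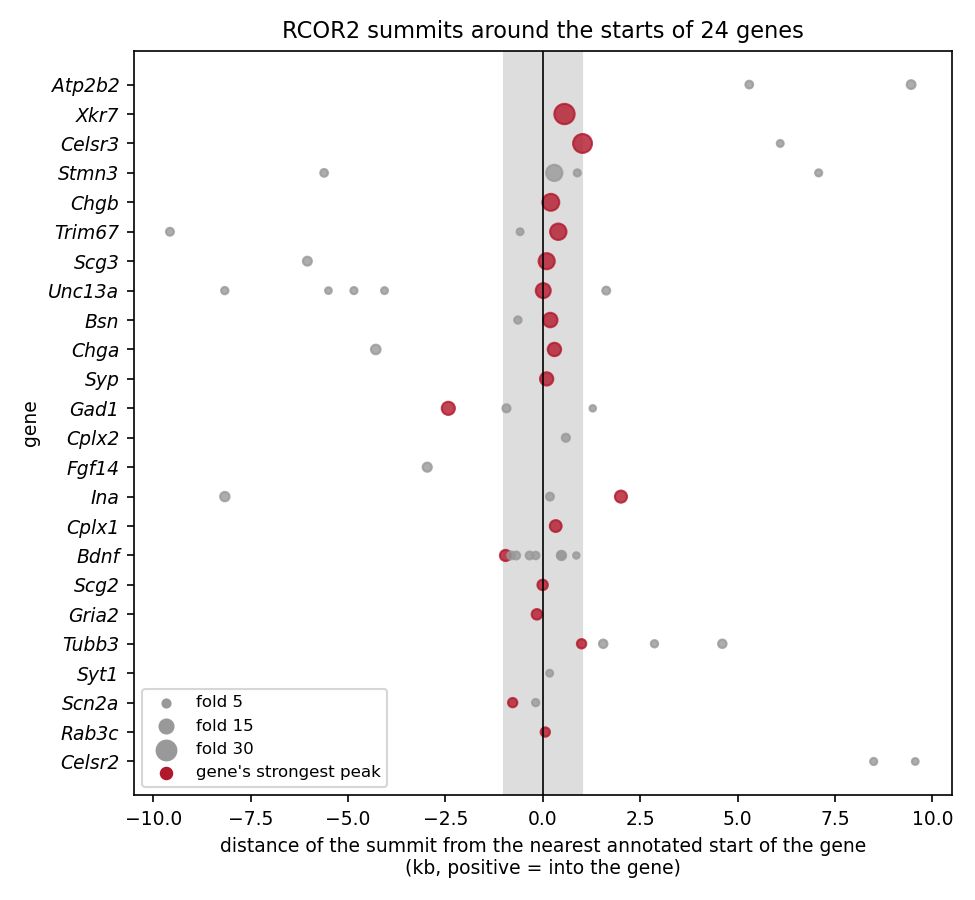
Distance in kb of each RCOR2 summit from the nearest RefSeq start for the 24 genes with a start in the promoter table, within 10 kb, with point area growing with the authors' fold and the strongest peak of a gene in red. The grey band marks 1 kb on either side, which holds a summit for 20 of the 24 genes.

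Rest, the repressor itself, had 7 peaks in reach. The strongest, chr5:77265502-77266791 (fold 11.7, −log10 q 31.6), had its summit 354 bp inside the gene from the nearer end of the interval. The other 6 had a −log10 q between 1.499 and 9.00. So 1 strong peak near one end of Rest stood among weak ones.

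The genes of vesicle release had a summit within 1 kb of the start or nearer end in 10 of 10, and 7 of the 10 had a peak of −log10 q 20 or more. Snap25, a SNARE protein that drives vesicle fusion, had 1 peak, chr2:136713459-136714577 (fold 24.7, −log10 q 99.6), 872 bp inside the interval from its nearer end. Unc13a had 10 peaks, of which the strongest, chr8:71670574-71672039 (fold 17.2, −log10 q 58.1), had its summit 11 bp after the start, beside the stretch printed above. Bsn, a scaffold protein of the presynaptic active zone, had its strongest peak (fold 16.0, −log10 q 52.8) 191 bp after the start. Syp, a protein of the synaptic vesicle membrane, had a single peak 98 bp after its start (−log10 q 40.05). The complexins, which bind the assembled SNARE complex, were reached at different places: that of Cplx1 (−log10 q 28.1) was 331 bp after a start and that of Cplx2 (−log10 q 35.2) 69133 bp into the gene. Syt4, a synaptotagmin, had 1 peak of −log10 q 22.6. The calcium sensor Syt1 (15.4), the small GTPase Rab3c (11.6) and the vesicle SNARE Vamp2 (9.00) had the lowest values of the group. The strongest peak of Syt1 lay 411439 bp into the gene, and that of Vamp2 4521 bp outside it. At Syt1, Cplx2 and Vamp2 the summits within 1 kb belonged to other, weaker peaks (−log10 q 3.23, 6.64 and 6.64).

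The genes of ion channels and membrane transport had their strongest peaks both at starts and deep inside genes. Atp2b2, a calcium pump of the plasma membrane, had the strongest peak of all 35 genes, chr6:113852241-113853286 (fold 34.4, −log10 q 158), which ranked 19 in the whole list. It lay inside the gene, 38981 bp from the nearest start. Fgf14, a fibroblast growth factor homolog that binds sodium channels, had the most peaks, 13, and its strongest (−log10 q 30.4) was 161873 bp into the gene from the nearest start in the table. The sodium channel subunits Scn3b (25.9) and Scn2a (11.6) and Gria2 (18.4) had theirs within 1 kb of a start or nearer end, that of Gria2 152 bp before the start.

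Among granins and secreted proteins 6 of 7 genes had a summit within 1 kb of the start or nearer end, and 5 of 7 reached a −log10 q of 20. The granin Chgb had its strongest peak, chr2:132781404-132782131 (fold 22.0, −log10 q 84.8), 205 bp after the start. That of the granin Scg3, chr9:75683735-75684312 (fold 19.9, −log10 q 73.3), was 99 bp after it, and that of Chga, another granin, was 298 bp after it (fold 13.8, −log10 q 41.3). The single peak of Scg2 was 5 bp before the start (fold 8.36, −log10 q 18.7). Vgf, a neuropeptide precursor, had the widest of the strongest peaks, chr5:137029628-137032811, which is 3184 bp wide (fold 16.3, −log10 q 54.1). Its summit was 2127 bp from the nearer end, and the Vgf summit within 1 kb belonged to a weak peak (−log10 q 3.23). Bdnf, a neurotrophin gene with several promoters, had 8 peaks in reach, the strongest 958 bp before one of its starts (−log10 q 22.6). Nsg1, a protein of neuronal endosomes, had the weakest strongest peak of all 35 (fold 4.15, −log10 q 3.79). It lay 6686 bp outside Nsg1 and inside Stx18, and 22.3% of all RCOR2 peaks were weaker.

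The cytoskeletal genes split into strong and weak. Stmn3, a regulator of microtubules, was the 1 gene with 2 peaks of −log10 q 20 or more. Its strongest, chr2:181301921-181302453 (fold 22.0, −log10 q 87.1), lay 4233 bp outside the interval beyond the gene's end, and the next (fold 20.2, −log10 q 74.7) was 294 bp after the start. Nefm, a neurofilament subunit, had its strongest peak 704 bp outside the interval (−log10 q 37.6), and Ina, the neuronal filament protein internexin, 2006 bp after the start (30.4). Tubb3, a neuronal tubulin (18.3), Stmn2, a relative of Stmn3 (9.85), and Nefl, another neurofilament subunit (9.00), were lower. The cadherin receptors differed from each other: Celsr3 had a peak at chr9:108824906-108827792 (fold 27.5, −log10 q 116), and the strongest near Celsr2 had a −log10 q of 6.64 and lay 350 bp beyond the far end of the gene.

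Of the remaining genes all 4 had a peak of −log10 q 20 or more. Xkr7, a member of the XK-related family, had 1 peak, chr2:153031400-153033177 (fold 31.6, −log10 q 142), 556 bp after the start. Trim67, a tripartite motif protein, had its strongest, chr8:124792692-124794726 (fold 20.6, −log10 q 77.6), 397 bp after the start. Gad1, which makes the transmitter GABA, had it 2427 bp before the nearest start (38.8), and the calcium buffer Calb1 52 bp from the nearer end (29.3). Over all 35 genes, 11 had their strongest peak in the top 1% of the list and 3 in the top 100, Atp2b2, Xkr7 and Celsr3. It lay inside the gene interval in 27 and outside it in 8.

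**Figure D4:**
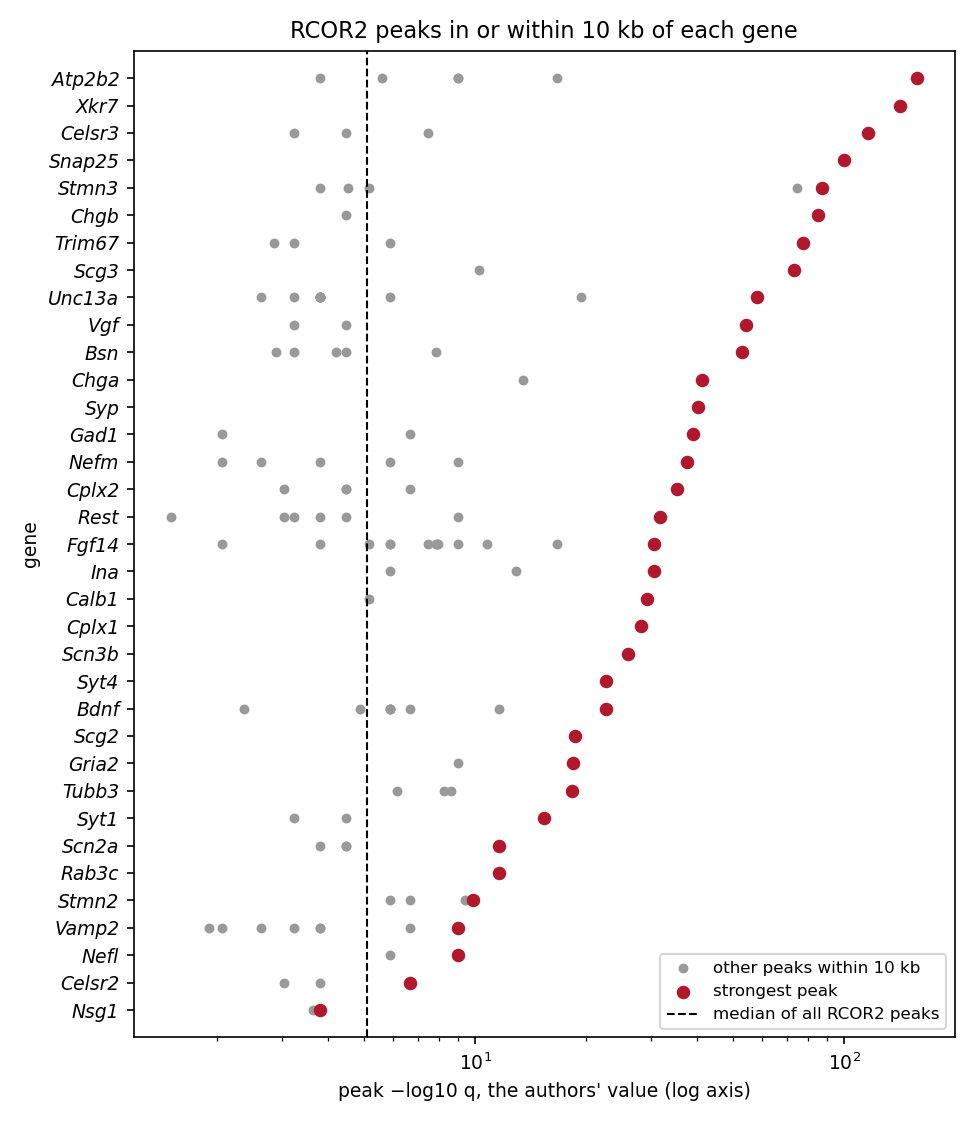
The −log10 q (the authors' value, log axis) of every RCOR2 peak in or within 10 kb of each of the 35 genes, the strongest in red, with the median of all RCOR2 peaks, 5.08, as a dashed line. The strongest peaks run from 158 at Atp2b2 to 3.79 at Nsg1, and most other peaks lie near the dashed line.

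Binding could be read at all 35 genes, but expression at few of them. Of the 35 genes 9 had enough counts to be tested in the KO against WT, and 26 did not. Of these 9, 1 was higher in the KO, Stmn2, where 10.4% of all 10241 tested genes were higher. A further 1, Nefl, was lower, where 9.3% of all tested genes were lower (edgeR, adjusted p under 0.05). At an unadjusted p under 0.05 there were the same number, 2 of 9. The median log2 fold change was −0.05 over these 9 genes and −0.02 over all tested genes. Calls at these counts are thus about as frequent among the neuronal genes as among all genes, and a gene could be tested only if its counts were high enough. The calls over all genes were uneven between chromosomes. Of the 1062 higher calls 282 lay on chromosome 6, 166 on chromosome 8 and 126 on chromosome 3. Of the 952 lower calls 271 lay on chromosome 11. The median log2 fold changes of these chromosomes were 0.92, 0.52, 0.48 and −0.49.

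Stmn2 had 1841 and 1247 counts in the KO libraries and 1231 and 506 in WT. This was 635 and 652 CPM in the KO against 519 and 386 in WT, so the KO libraries were higher without overlap. Means were 644 ± 12.0 and 452 ± 94.3 CPM (SD, n = 2), for which edgeR gave 0.50 on the log2 scale (SE 0.15, adjusted p = 0.0119). Stmn2 lies on chromosome 3, where the median log2 fold change of tested genes was 0.48. Centred on its chromosome it was at 0.03 (edgeR, adjusted p = 0.945). The call was also lost without KO replicate 1 (0.52), KO replicate 2 (0.50) or WT replicate 2 (0.31), and without WT replicate 1 the log2 fold change was 0.76. Over all alternatives the adjusted p ran from 2.20e-05 to 0.945 (edgeR or DESeq2).

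Nefl had 38 and 33 counts in the KO libraries and 89 and 38 in WT, or 13.1 and 17.3 CPM against 37.5 and 29.0. Both KO libraries were below both WT libraries. Means were 15.2 ± 2.93 and 33.2 ± 6.06 CPM (SD, n = 2), for which edgeR gave −1.16 on the log2 scale (SE 0.37, adjusted p = 0.0195). Tested genes of chromosome 14 had a median log2 fold change of −0.12, and centring on it gave Nefl an adjusted p of 0.0511 (edgeR). The call was lost centred on chromosome 14 (−1.04), without KO replicate 1 (−0.96), without WT replicate 1 (−0.93) and with DESeq2 (−1.14), and over all alternatives the adjusted p ran from 0.0116 to 0.188 (edgeR or DESeq2). The sums of neuron and neural progenitor markers were lower in the same KO libraries, and in bulk samples fewer cells of a type and less RNA per cell cannot be told apart.

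**Figure D5:**
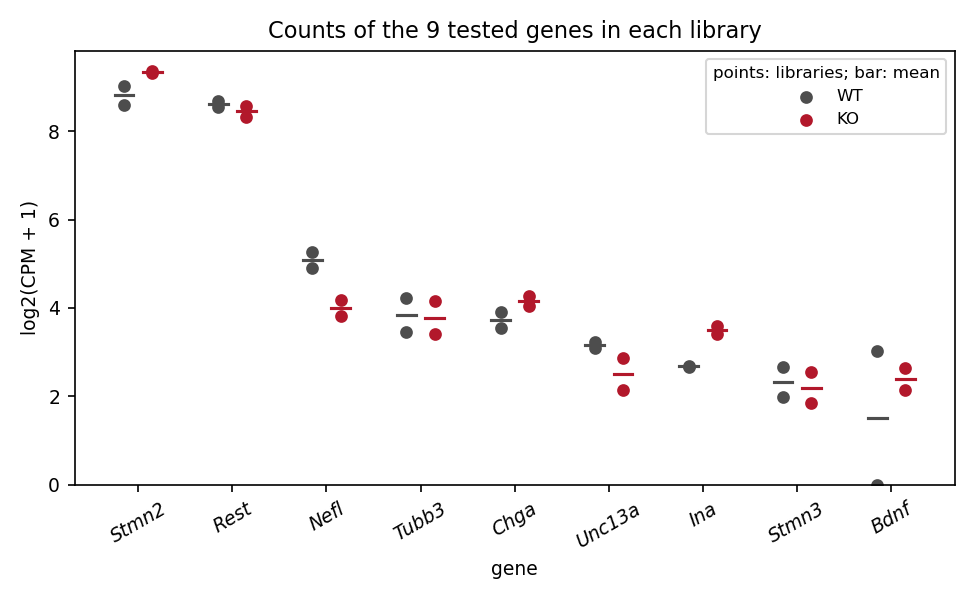
Level of the 9 tested genes in each library as log2(CPM + 1), with points for libraries and a bar for the mean of 2 libraries of WT or KO cells. The groups do not overlap for Stmn2 (higher in the KO), Nefl (lower in the KO), and for Chga, Unc13a and Ina, whose differences did not pass the test. How often groups of 2 libraries separate among all tested genes was not counted, so separation alone shows no change.

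The other 7 tested genes did not pass. Rest had 930 and 724 counts in the KO and 971 and 487 in WT, or 321 and 379 CPM against 409 and 371. The groups overlapped, with means of 350 ± 40.9 and 390 ± 27.1 CPM (SD, n = 2), and edgeR gave −0.16 on the log2 scale (SE 0.15, adjusted p = 0.519). Next to Stmn2 it was the only one of the 9 at over 100 CPM. Chga had 45 and 35 counts in the KO and 33 and 14 in WT, which was 16.9 ± 1.97 against 12.3 ± 2.29 CPM (SD, n = 2), for which edgeR gave 0.43 on the log2 scale (SE 0.47, adjusted p = 0.587). Ina had 28 and 21 counts against 13 and 7, which was 10.3 ± 0.935 against 5.41 ± 0.104 CPM, for which edgeR gave 0.92 on the log2 scale (SE 0.63, adjusted p = 0.340). The groups did not overlap for Chga or Ina, but with SEs of that size a change could not be told from none.

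Unc13a had 10 and 12 counts in the KO and 18 and 11 in WT (log2 fold change −0.74, SE 0.68; edgeR, adjusted p = 0.510). Tubb3 had 28 and 32 against 42 and 13 counts (−0.13, SE 0.49; edgeR, adjusted p = 0.900). Both lie on chromosome 8, where the median log2 fold change was 0.52, and centred on it they were at −1.25 and −0.64, again without passing. Stmn3 had 14 and 5 against 7 and 7 counts (−0.05, SE 0.80; edgeR, adjusted p = 0.979). Bdnf had 10 and 10 against 17 and 0 counts (0.05, SE 0.83; edgeR, adjusted p = 0.980), so that its fold change hung on the WT library taken. Levels of Tubb3, Stmn3 and Bdnf overlapped between the groups, and the sign of each changed when a library was left out.

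The 26 genes that were not tested had few counts in either group. Syp, Rab3c, Scg2, Scg3 and Calb1 had none in any library, and 18 of the 35 had 10 or fewer over all 4. Summed over the 26 genes there were 105 and 31 counts in the KO libraries and 63 and 39 in WT. This was 36.2 and 16.2 CPM in the KO against 26.6 and 29.7 in WT, so the KO libraries lay on either side of WT. Over all 14890 untested genes the sums were 7128 and 7063 CPM in the KO and 7691 and 7861 in WT, lower in both KO libraries. Nefm alone gave 36 of the 105 counts of KO replicate 1, beside 6 in KO replicate 2 and 6 and 1 in WT. Without Nefm, left out after its values were seen, the other 25 genes summed to 23.8 and 13.1 CPM in the KO and 24.03 and 28.95 CPM in WT. KO replicate 2 was then below both WT libraries, and KO replicate 1 was level with WT replicate 1. Without KO replicate 2, Nefm could be tested and was called higher (log2 fold change 2.75; edgeR, adjusted p = 0.0479), a value that rests on the single KO library in which it was high. The untested genes with the strongest peaks had few counts in both groups: Atp2b2 had 3 and 0 counts in the KO and 6 and 3 in WT, Xkr7 0 and 0 against 0 and 1, and Celsr3 4 and 1 against 3 and 1. Snap25 had 0 and 0 against 2 and 0 counts, Chgb 1 and 0 against 2 and 0, Trim67 3 and 4 against 4 and 1, Vgf 0 and 1 against 0 and 2, and Bsn 3 and 3 against 0 and 4. At this depth a rise from such levels would be seen only if it were large.

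Strong peaks were thus found both at genes with counts and at genes without. The highest values among the 9 tested genes were at Stmn3 (87.1) and Unc13a (58.1), neither of which passed the test, whereas Stmn2 and Nefl, the genes that were called, had peaks of −log10 q 9.85 and 9.00. Stmn3 and Unc13a had few counts and SEs of 0.80 and 0.68, so a change there could not be told from none. Centred on its chromosome, Stmn2 fell to 0.03 (edgeR, adjusted p = 0.945). Nefl stayed at −1.04 when centred and lay just over the cutoff (edgeR, adjusted p = 0.0511). Scg3 (73.3), Syp (40.05) and Calb1 (29.3) carried a strong peak with no count in any library.

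The proteins that work with REST were measured in the same libraries. Of a list of 24 genes of REST, CoREST, LSD1 and linked corepressors, which includes Rest, 23 were tested. Of these, 0 were higher and 2 lower in the KO (edgeR, adjusted p under 0.05). The shares over all tested genes are 10.4% and 9.3%, uneven between chromosomes as given above. The corepressor Ctbp2 had 328 and 185 counts in the KO and 440 and 221 in WT (log2 fold change −0.75, SE 0.18; edgeR, adjusted p = 0.00183). The scaffold of histone deacetylase complexes, Sin3a, had 289 and 282 against 489 and 216 counts (−0.60, SE 0.19; edgeR, adjusted p = 0.0157). The call of Ctbp2 was lost without KO replicate 2 (−0.63). That of Sin3a was lost without KO replicate 1 (−0.34), without WT replicate 1 (−0.41) and with DESeq2 (−0.59). Kdm1a, which encodes LSD1, had 822 and 550 counts against 636 and 393 and was at 0.01.

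An RCOR2 peak of −log10 q 20 or more lay in reach of 5 of these 24 genes, with Rest counted here again. The share was 9.85% among expressed genes and 7.85% among all other protein-coding genes. The highest value was at Rcor2 (247), where binding cannot be told apart from reads of the tagged construct. It was followed by Phf21b, a paralog of the CoREST complex subunit gene Phf21a (fold 39.5, −log10 q 198, rank 10 in the list), Rest (31.6), Phf21a (21.5) and the deacetylase Hdac2 (20.5). Phf21b was too low to be tested, with 5 and 14 counts in the KO and 0 and 4 in WT.

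A further 26 genes, listed as REST targets, were also chosen with earlier results in view. Of these, 24 had an RCOR2 peak in reach (92.3%), all but Dcx and Scn1a, beside 45.7% of silent and 89.0% of expressed genes. One of −log10 q 20 or more lay at 12 (46.2%), beside 5.36% of silent and 9.85% of expressed genes and 68.6% of the 35 genes above. The highest were at the activity-dependent transcription factor gene Npas4 (213, rank 5), the neuronal RNA-binding protein gene Elavl3 (156), the glycine receptor gene Glra1 (103) and the scaffold gene Mapk8ip2 (93.6). Only 3 were tested, Elavl3, Mapk8ip1 and Mapk8ip2, of which 0 were higher and Elavl3 was lower. It had 0 and 4 counts in the KO and 18 and 7 in WT, for which edgeR gave −2.83 on the log2 scale (SE 0.96, adjusted p = 0.0281). Without WT replicate 1, which held 18 of its counts, Elavl3 no longer passed the filter and could not be tested. The call was lost without KO replicate 1 (−1.62), without WT replicate 2 (−3.01), with no filter on low counts and with DESeq2 (both −2.76). Elavl3 was at −6.85 without KO replicate 2. Elavl3 was thus, like Nefl, a neuronal gene that was lower and not higher in the KO libraries, with few counts behind it. The sums of neuron and neural progenitor markers moved the same way, and Stmn2 the other way. The part of the markers in it was not tested.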

How the data were processed

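For expression, the authors deposited raw counts per gene name. Tools named in the submitters' processing notes are Bowtie2 2.3.4.1, MACS2 2.1.1.20160309, bedtools 2.25.0, HOMER, STAR 2.5.2b, SAMtools 1.8, Trimmomatic 0.36, Subread and featureCounts, with the builds GRCm38 and mm10 and without the role of each. The peaks' fold, a ratio over control, and −log10 q are the authors' values in the deposited peak list. The sources used here give neither the control of the peak calls nor whether counting used strand. The ChIP libraries were sequenced differently (1 single-end, 1 paired-end, per the labels' protocols). In 26 entries of the counts a date stands in place of a gene name. These were tested and not named. No per-sample column was left out.

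The test was edgeR 4.0.16 in R 4.3.3: filterByExpr (10241 genes left), TMM scaling, quasi-likelihood, two-sided, with Benjamini-Hochberg adjustment over all tested genes at 0.05. SEs were derived from the F statistic and the fold change. Alternatives were DESeq2 1.42.0, other scaling, no filter, a replicate block, centring on each chromosome's median and leaving out each library. The test was checked on simulated data. Whether replicates were separate cultures is not stated, and p-values therefore reflect only how these libraries vary. Replicates differed by more than sampling noise (chi-square over its degrees of freedom 4.78 in WT, 4.22 in KO). CPM use TMM-scaled totals of the tested genes.

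A peak was given to a gene when its summit lay in the RefSeq interval (GRCm38.p6) or within 10 kb, in Python 3.11.15. Positions are 1-based. Starts came from the RefSeq promoter table for 17492 of 21887 protein-coding genes and otherwise from the nearer interval end. No genome sequence was used beyond that table. The members and lists were chosen with earlier results of these data known. Values are given for every tested gene, for the 12 genes with the strongest peaks and for genes with none, and of the other lists for called genes and the 4 strongest. Other genes with values were chosen after these were seen. The TALE pull-downs, their input, the ATAC-seq and the controls on their own were not used here.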

Additional observations from a re-analysis of the deposited data

How the results depend on the processing

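The count of the 35 genes called higher was 0 with each chromosome centred on its median and 0 to 1 with a library left out. The count called lower was 0 with centring, 0 with DESeq2, and 0 to 1 with a library left out. With a replicate block 1 was higher and 1 lower, as without it, and the block changed no call of a named gene. Replicate numbers share no stated source, and deviations of same-numbered libraries correlated at −0.0532. REST and CoREST genes called lower were 1 with DESeq2 and 1 to 2 with a library left out. Hdac2 was called lower only without WT replicate 1 (−0.70). Other REST targets called lower were 0 without the filter, 0 with DESeq2 and 0 to 1 with a library left out. Over all genes DESeq2 called 650 higher and 506 lower, centring left 643 and 683, and leaving out a library gave 569 to 920 higher and 440 to 779 lower. Signs turned for Stmn3 (0.0193 centred, −0.60 to 0.36 with a library left out), Bdnf (−0.74 to 6.15 with a library left out) and Tubb3 (−0.54 to 0.40 with a library left out). Rcor2 was called with library size alone (−0.64). The causes were not tested.

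With summits within 250 bp of a start, 16 of the 35 genes and 8.94% of silent genes had one, and within 5 kb 26.1% of silent genes. That silent share at 1 kb was 9.20% for −log10 q of at least 5, 6.61% for a fold of at least 5 and 8.96% for genes with 0 counts. Silent genes with a peak were 26.4% at a fold of at least 5, 28.2% in the interval alone and 74.7% within 50 kb, and the median of their strongest peak was 11.6 at that fold. Within 50 kb there were 5 peaks per neuronal gene and 2 per silent gene. The median per silent gene was 1 when silent meant failing the expression filter, and 1 without olfactory and vomeronasal receptor genes, an alternative chosen after seeing the data. The count of the 35 genes with a peak was 33 in the interval alone and 34 at a −log10 q or fold of at least 5. Depth limits what can be said of the 26 genes with too few counts to test.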
